A study of Mus musculus with 6 samples.

Results

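The macrophage and osteoclast-lineage cells of digits-in-a-dish (DID) cultures were examined at Day 2, Day 7 and Day 10 by single-cell RNA sequencing. A cell was kept as a member when its barcode held at least 10 UMIs of Tyrobp and Fcer1g together, and 409 of 54126 cells (0.756%) met this rule. Members were thus selected on the measured UMIs of these 2 genes. A UMI (unique molecular identifier) tags 1 captured RNA molecule. Only barcodes with at least 3000 UMIs, at most 7500 detected genes and at most 25% of UMIs from mitochondrial genes were counted as cells. The remaining 53717 cells are called other cells below.

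DID cultures were grown from wild-type CD-1 mouse embryos at E11.5, from pooled pieces of the most distal forelimb mesenchyme, which reassemble in the dish into digit-like cartilage. No genotype or drug was varied, and day of culture was the single variable the labels give. Each day had 2 independent cultures (replicates A and B, n = 2), each giving 1 library. The labels do not say how capture and sequencing runs were spread over the days, so day and run cannot be told apart. The medium held fetal bovine serum and no added growth factor. The labels do not say whether a replicate letter marks the same culture at several days. Values given in pairs are replicate A and then replicate B, and CPM is the UMIs of a gene per 1000000 UMIs of the summed cells of a library.

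Tyrobp (DAP12) and Fcer1g (the FcR gamma chain) are membrane adaptors that carry ITAM motifs and relay signals from receptors such as TREM2 and the Fc receptors. Macrophages are phagocytes that depend on signalling through the CSF1 receptor. Tissue macrophages of the embryo arise from yolk sac and fetal liver progenitors and clear dead cells, including those between forming digits. Osteoclasts are large cells that form by fusion of precursors of the same lineage under CSF1 and RANKL, and they resorb mineralized matrix with acid and with proteases such as cathepsin K. Mice that lack both adaptors form few functional osteoclasts.

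The label was checked on genes that the rule did not use. Csf1r, the CSF1 receptor, had a UMI in 395 of 409 members, and Trem2 had one in 392. After each cell was thinned to 3000 UMIs, Csf1r was seen in 53.8 to 76.2% of members of a library and in at most 0.255% of other cells. All 22 macrophage markers were measured, and their summed level in members ranged from 6402 to 13539 CPM over the 6 libraries, against 11.4 to 15.4 CPM in other cells. Summed markers of other blood lineages were low in members beside the macrophage markers, but some were above their level in other cells. Mast cell genes reached at most 4.92 CPM, megakaryocyte genes 5.19 CPM, dendritic cell genes 40.8 CPM and lymphoid genes 94.7 CPM (26.4 to 46.4 CPM in other cells), and erythroid genes were at 0 in all 6 libraries. The highest dendritic value was in Day 2 replicate B, where other cells held 2.23 CPM. Neutrophil genes summed to 57.8 and 31.7 CPM at Day 2, against 5.36 and 5.22 CPM in other cells. At the later days they summed to between 1.60 and 3.12 CPM in members. In single members the macrophage and osteoclast genes divided the population, as described below, so the name covers at least these kinds of cell.

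Per library, 0 to 5 members held 10 to 19 UMIs of the adaptor pair and 0 to 6 other cells held 5 to 9, while the median member held 57 to 108. The edge weighed most in Day 2 replicate B, where 5 of 13 members held 10 to 19 UMIs and 6 other cells held 5 to 9. That library had 8 members with a minimum of 20 UMIs and 19 with a minimum of 5. At least 1 adaptor UMI was seen in 0.761 to 1.20% of other cells at Days 2 and 7 and in 4.86 and 6.12% at Day 10. No member barcode was found in more than 1 library (0 of 409), while 333 of 53792 cell barcodes were. Day 7 members were the deepest, with medians of 30592 and 25349.5 UMIs, against 17676 and 14497 for Day 2 and 21025.5 and 22150.5 for Day 10. Day 2 members held only 653262 UMIs in all.

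Members were more frequent in the libraries of later days. Day 2 libraries held 21 members among 8949 cells and 13 among 9742. Day 7 libraries held 29 among 9355 and 46 among 9373, and Day 10 libraries 126 among 8350 and 174 among 8357. As shares these were 0.235% and 0.133%, then 0.310% and 0.491%, then 1.51% and 2.08%. With the limits on cells given above, both Day 10 libraries lay above both Day 7 libraries, and these above both Day 2 libraries. The order of Day 7 and Day 2 depended on the minimum of UMIs per cell. With a minimum of 1000 UMIs, Day 7 replicate A (0.215%) lay below Day 2 replicate A (0.220%). Both Day 10 libraries stayed highest (1.47% and 2.01%). With the limits given above, the means were 0.184% ± 0.0716, 0.400% ± 0.128 and 1.80% ± 0.405 (SD, n = 2 libraries a day). The Day 10 share was thus 9.76 times and the Day 7 share 2.18 times that of Day 2. An exact permutation test over the 6 libraries gave p = 0.0667, which is the smallest value 2 libraries a day allow, so the design cannot pass 0.05. A larger share cannot be told apart from fewer or less easily released cells of other kinds. Exact 95% intervals of each share cover counting error only, and they were 0.145 to 0.358% in Day 2 replicate A and 1.79 to 2.41% in Day 10 replicate B.

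**Figure D1:**
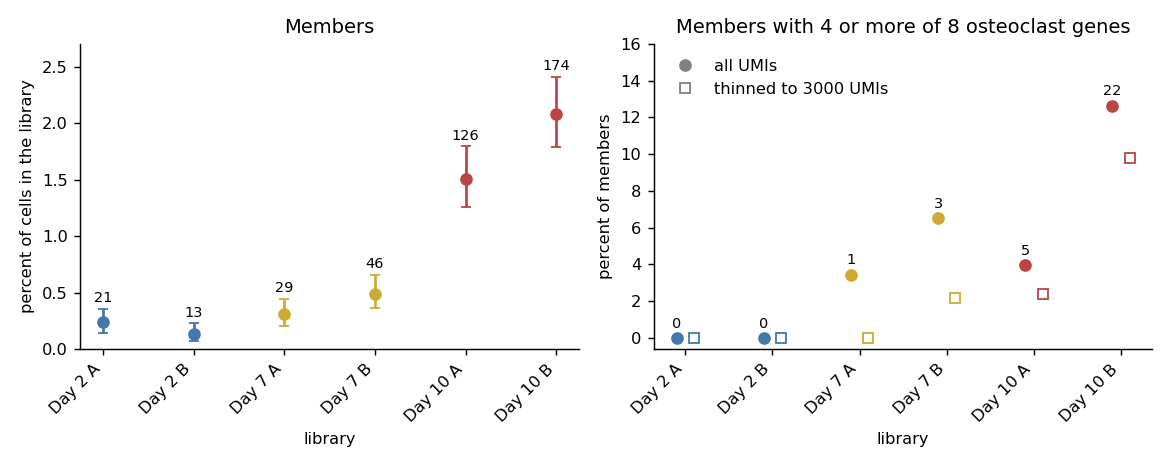
Left, members as percent of the cells of each library with exact 95% intervals and the number of members above each point. Right, percent of members with at least 4 of 8 osteoclast genes, from all UMIs (filled, with the number of cells) and after thinning to 3000 UMIs (open). On the left both Day 10 libraries were highest. On the right Day 10 replicate A (5 cells, 3.97% from all UMIs) lay below Day 7 replicate B (6.52%). After thinning it lay close to that library (2.38% against 2.17%).

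Levels in members were set beside those in other cells of the same libraries as a description, since the rule chose members on this contrast. Of 1007 genes at 100 CPM or more in the members of every library, 49 were at least 16 times higher than in other cells in every library, 36 at least 100 times, and 230 were lower in every library. The 20 furthest above included the rule genes and complement genes (C1qa, C1qb, C1qc), lysosomal and lytic genes (Ctss, Lyz2, Pld4, Mpeg1), receptors (Lilrb4a, Adgre1, Clec4d, C3ar1), the myeloid master regulator Spi1 (PU.1) and the chemokines Ccl3 and Ccl4. C1qa, C1qb and C1qc, which encode the 3 chains of complement C1q, lie side by side at chr4:136880129-136898803 (GRCm38). Lyz2 has a near-identical neighbour, Lyz1, and reads shared by the 2 copies make its level uncertain. Tyrobp was 2350.3 and 2916 CPM (Day 2), 1532 and 1661 CPM (Day 7), then 1966 and 1882 CPM (Day 10). Fcer1g was 2348 and 1805 CPM (Day 2), 1876 and 1849.6 CPM (Day 7), then 2875 and 2466 CPM (Day 10). Neither adaptor was tested, since both chose the cells.

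PU.1 is known to bind a purine-rich box, and the promoters of these 20 genes were searched for 1 such word, GAGGAAGT, on both strands (ACTTCCTC on the other). Windows were RefSeq promoters of GRCm38, from 250 bases before to 50 bases after the gene start, and 11 of the 20 genes had an entry. The word was found in C1qc, Ctss and Pld4, in 3 of 12 windows, and in 1052 of all 32851 windows (3.20%). The 3 windows are shown because these genes are among the most restricted to members, with the word in capitals.
C1qc, chr4:136893056-136893155, minus strand: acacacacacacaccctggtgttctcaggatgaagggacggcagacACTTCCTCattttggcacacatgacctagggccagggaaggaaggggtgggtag
Ctss, chr3:95526692-95526791, plus strand: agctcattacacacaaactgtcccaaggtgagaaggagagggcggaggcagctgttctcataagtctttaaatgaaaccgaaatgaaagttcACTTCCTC
Pld4, chr12:112760572-112760671, plus strand: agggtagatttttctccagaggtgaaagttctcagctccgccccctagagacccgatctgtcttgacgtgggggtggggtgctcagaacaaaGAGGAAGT
In C1qc the word began 195 bases before the RefSeq start and in Ctss 2 bases before it. In Pld4 it began at base 10 of the transcript. A match in the letters is a description and not a shown binding site.

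**Figure D2:**
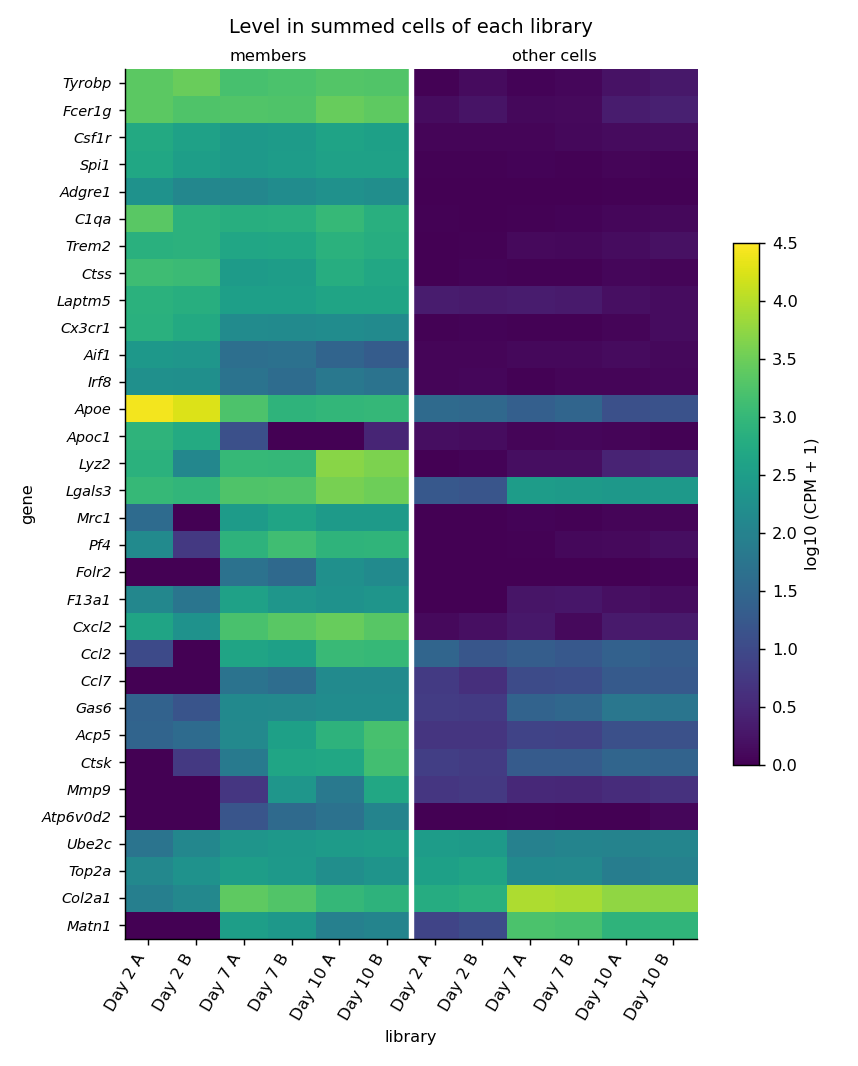
Levels of 32 genes in the summed members (left) and summed other cells (right) of each library, as log10 (CPM + 1), with replicates A and B side by side. In members Apoe and Apoc1 were brightest at Day 2, Mrc1, Pf4 and Ccl2 were bright from Day 7, and Acp5 and Ctsk were brightest in Day 10 replicate B.

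Between Day 2 and Day 7 Apoe, Apoc1, Apoc2 and Cx3cr1 fell in members, and Ccl2, Cxcl2 and Mrc1 rose. Sums per library were compared with edgeR's quasi-likelihood test, with Benjamini-Hochberg adjustment over 9149 genes, and a gene was called at an adjusted p under 0.05. Of the genes tested, 306 were called higher (3.34%) and 297 lower (3.25%) at Day 7. The Day 2 sums rest on 34 cells. In all, 186 genes were called without Day 2 replicate A, 400 without Day 2 replicate B, 288 without Day 7 replicate A and 334 without Day 7 replicate B.

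Apoe, a lipid carrier secreted by macrophages, stood far higher at Day 2 than later. It was 25934 and 18205 CPM (Day 2), 1726 and 844 CPM (Day 7), then 937 and 1009 CPM (Day 10). Both Day 2 libraries lay more than 10 times above each of the other 4. Apoe fell by 4.07 on the log2 scale (SE 0.29, edgeR adjusted p = 0.000111). Its neighbours on chromosome 7, which share a cluster at chr7:19671579-19699188 (27.6 kb), moved with it. Apoc1 was 829.6 and 558 CPM (Day 2), 11.4 and 0 CPM (Day 7), then 0 and 1.88 CPM (Day 10). Apoc2 was 76.3 and 81.6 CPM (Day 2), 4.16 and 0.802 CPM (Day 7), then 7.81 and 3.98 CPM (Day 10). Neither gene overlapped between Day 2 and Day 7. Apoc1 fell by 7.07 on the log2 scale (SE 0.60, edgeR adjusted p = 0.000301), and Apoc2 fell by 5.02 on the log2 scale (SE 0.58, edgeR adjusted p = 0.000997). Other genes of cholesterol export were lower too. Abca1 fell by 2.03 on the log2 scale (SE 0.34, edgeR adjusted p = 0.00692) and Abcg1 fell by 3.33 on the log2 scale (SE 0.82, edgeR adjusted p = 0.0421). Of the 18 genes in the lipid and TREM2 list, 13 were tested, with 2 called higher and 4 lower. The higher genes were Lgals3 (galectin-3) and Pltp, a phospholipid transfer protein. Lgals3 was 1035 and 929.5 CPM (Day 2), then 1833 and 1926 CPM (Day 7) and rose by 0.97 on the log2 scale (SE 0.13, edgeR adjusted p = 0.00227). In other cells Lgals3 was 16.008 and 14.2 CPM (Day 2), then 304 and 285 CPM (Day 7), and its change in members minus that in other cells was -3.69 (SE 0.17, edgeR adjusted p = 2.01e-06). Pltp was 4.62 and 4.53 CPM (Day 2), 40.5 and 55.3 CPM (Day 7), then 72.9 and 91.2 CPM (Day 10) and rose by 3.43 on the log2 scale (SE 0.56, edgeR adjusted p = 0.00642). Its Day 2 level rests on 3 UMIs, and in other cells Pltp was 2.63 and 3.15 CPM (Day 2), 12.7 and 12.011 CPM (Day 7), then 20.8 and 24.1 CPM (Day 10). Spp1 (osteopontin) was the fourth lower gene, from 841 and 4144 CPM at Day 2 to 345 and 274 at Day 7. Gpnmb, at 129 and 807 CPM (Day 2), then 405 and 287 CPM (Day 7), was not called.

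Of 22 macrophage markers, 9 were lower and 1 was higher (Mrc1, given below), and their median log2 change was -0.77 against 0.02 over all genes. Without Day 2 replicate A, or without Day 7 replicate A, 5 were lower. Cx3cr1, the fractalkine receptor of tissue-surveying macrophages, was 719 and 544 CPM (Day 2), 149 and 144 CPM (Day 7), then 150.3 and 141 CPM (Day 10). Day 2 stood apart, and the other 4 libraries lay within 10 CPM of each other. Cx3cr1 fell by 2.09 on the log2 scale (SE 0.17, edgeR adjusted p = 0.000268). Aif1 (Iba1), which bundles actin in ruffling membranes, was 254 and 227 CPM (Day 2), 42.6 and 46.5 CPM (Day 7), then 27.6 and 19.2 CPM (Day 10) and fell by 2.40 on the log2 scale (SE 0.22, edgeR adjusted p = 0.000429). Ctss, the lysosomal cathepsin S, fell by 1.96 on the log2 scale (SE 0.17, edgeR adjusted p = 0.000303). C1qb fell by 1.67 on the log2 scale (SE 0.27, edgeR adjusted p = 0.00656) and C1qc fell by 1.31 on the log2 scale (SE 0.28, edgeR adjusted p = 0.0247). C1qa, at 2223 and 775 CPM (Day 2), then 659.7 and 699 CPM (Day 7), varied between the Day 2 libraries and did not pass (edgeR adjusted p = 0.103). Fcgr1, the high-affinity Fc receptor, Ptprc (CD45), Laptm5 and Trem2 were the remaining lower markers. The smallest of these changes was in Trem2, which fell by 0.61 on the log2 scale (SE 0.15, edgeR adjusted p = 0.0439), and its call was lost when any 1 library was left out. Csf1r was 548 and 372 CPM (Day 2), 256 and 296 CPM (Day 7), then 413 and 361 CPM (Day 10) and was not called. Of 5 tested genes often used for microglia, 2 were lower and 1 was higher. Gpr34, an orphan receptor, was among the lower ones. Sparc, a matrix protein, was the higher one, at 467 and 499 CPM (Day 2), then 1336 and 809 CPM (Day 7). In other cells Sparc was 829.7 and 704 CPM at Day 2 and 2632 and 2558 CPM at Day 7, above members in each of these libraries. Sall1, which defines microglia, reached at most 4.62 CPM, and P2ry12 63.5 CPM.

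Markers of resident tissue macrophages went the other way. Of 12 listed, 8 were tested and 4 were higher, with none lower. The test of whether their change differed between members and other cells called 0 higher and 1 lower (F13a1). Other cells held at most 0.153 CPM of Mrc1, 0.472 CPM of Pf4 and 0.0911 CPM of Folr2 in any library, so for these genes that test compares members with levels near 0. Mrc1 (CD206), a mannose receptor for scavenging glycoproteins, was 36.976 and 0 CPM (Day 2), 291 and 431 CPM (Day 7), then 280.4 and 278 CPM (Day 10). Every later library lay above both Day 2 libraries, and Mrc1 rose by 3.97 on the log2 scale (SE 0.49, edgeR adjusted p = 0.00139). Pf4 (CXCL4) was 143 and 4.53 CPM (Day 2), 818 and 1334 CPM (Day 7), then 840.4 and 875 CPM (Day 10). Its Day 2 libraries were far apart, yet both were below every later one. Pf4 rose by 3.66 on the log2 scale (SE 0.57, edgeR adjusted p = 0.00482), while DESeq2 gave an adjusted p of 0.0644. F13a1, the coagulation factor XIII A chain, rose by 1.70 on the log2 scale (SE 0.31, edgeR adjusted p = 0.0119), and its change in members minus that in other cells was -3.66 (SE 0.61, edgeR adjusted p = 0.00305). In other cells F13a1 was 0.034 and 0.012 CPM at Day 2 and 0.773 and 0.897 CPM at Day 7. Folr2, a folate receptor, had 0 UMIs at Day 2 and 47.8 and 32.9 CPM (Day 7), then 182 and 142 CPM (Day 10). The Day 7 mean was at least 8.78-fold higher than 3 counts over both Day 2 libraries would give. In thinned cells, Mrc1 was seen in 4.76 and 0% of Day 2 members and in 32.2 to 41.4% later. Cd163 had no UMI in any member, and Lyve1 and Timd4 stayed at or under 7.16 CPM.

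Of 18 tested cytokine genes 5 were higher, all of them chemokines, and 0 were lower, while the list median was 0.05. Ccl2, which draws CCR2-bearing monocytes, was 9.24 and 0 CPM (Day 2), 422 and 365 CPM (Day 7), then 1107 and 1041 CPM (Day 10). Day 2 lay below 10 CPM and every later library above 300. Ccl2 rose by 6.04 on the log2 scale (SE 0.38, edgeR adjusted p = 6.89e-05). Ccl7, its neighbour in a shared span at chr11:82035571-82047525, had 0 UMIs at Day 2 and 49.9 and 39.3 CPM (Day 7), then 142 and 144 CPM (Day 10). Day 7 was thus at least 9.71-fold higher than the limit of 3 counts. Cxcl2, a neutrophil chemokine, was 429.8 and 195 CPM (Day 2), 1614 and 2227 CPM (Day 7), then 2829 and 2163 CPM (Day 10) and rose by 2.61 on the log2 scale (SE 0.30, edgeR adjusted p = 0.000997). Ccl3 rose by 1.08 on the log2 scale (SE 0.27, edgeR adjusted p = 0.045) and Ccl9 rose by 1.47 on the log2 scale (SE 0.25, edgeR adjusted p = 0.00731). Other cells held at most 28.2 CPM of Ccl2 and at most 1.11 CPM of Cxcl2. Il6 had no UMI in any member, and Nos2 was under 1 CPM. Tnf, at 69.3 and 154 CPM (Day 2), then 49.9 and 52.1 CPM (Day 7), was not called. Of 12 response genes to dissociation, 11 were tested, and 2 were lower, Egr1 and Zfp36. The summed level of these 12 genes in members was 3792 and 2317 CPM (Day 2), 2434 and 1880.1 CPM (Day 7), then 3108 and 2630.2 CPM (Day 10), and its part in the chemokine values was not tested.

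Among 15 tested transcription factors, 7 were lower and 1 was higher. Irf8, needed for monocyte and macrophage commitment, was 178 and 172 CPM (Day 2), 49.9 and 38.5 CPM (Day 7), then 63.4 and 49.9 CPM (Day 10). Both Day 2 libraries were above all others, and Irf8 fell by 1.97 on the log2 scale (SE 0.22, edgeR adjusted p = 0.000995). Cebpa, a regulator of myeloid progenitors, fell by 1.96 on the log2 scale (SE 0.26, edgeR adjusted p = 0.00195). Irf5, Ikzf1, Tfec and Zeb2 were also lower, by 0.71 to 2.31. Maf, a factor of macrophage identity, rose by 0.81 on the log2 scale (SE 0.16, edgeR adjusted p = 0.0176). Spi1 was 488 and 326 CPM (Day 2), 264 and 312 CPM (Day 7), then 372 and 381 CPM (Day 10) and was not called. Without Day 2 replicate A, 1 factor was lower and 1 was higher. Of 19 lysosomal genes, 6 were lower and 0 higher. Ctsd, the protease cathepsin D, fell by 1.69 on the log2 scale (SE 0.41, edgeR adjusted p = 0.0388). Lipa, which hydrolyses cholesteryl esters, fell by 1.03 on the log2 scale (SE 0.19, edgeR adjusted p = 0.0123). None of the 19 was called without Day 7 replicate A, and 1 without Day 7 replicate B. Of the growth factors, 1 of 9 tested was higher. Gas6, a bridge between dying cells and phagocyte receptors, was 25.4 and 13.6 CPM (Day 2), 138 and 129.9 CPM (Day 7), then 153 and 156 CPM (Day 10) and rose by 2.69 on the log2 scale (SE 0.27, edgeR adjusted p = 0.000571). In other cells Gas6 was 5.29 and 4.71 CPM (Day 2), 26.6 and 31.3 CPM (Day 7), then 60.8 and 54.7 CPM (Day 10), and its change to Day 7 differed between members and other cells by -0.19 (SE 0.41, edgeR adjusted p = 0.821).

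Genes with the largest falls outside the lists included Cybb, a subunit of the phagocyte NADPH oxidase. It was 279.6 and 249 CPM (Day 2), 28.1 and 9.62 CPM (Day 7), then 37.4 and 23.4 CPM (Day 10), and fell by 3.86 on the log2 scale (SE 0.37, edgeR adjusted p = 0.000517). Trf (transferrin) fell by 3.22 on the log2 scale (SE 0.33, edgeR adjusted p = 0.000659). Cd34, a marker of progenitors, fell by 3.38 on the log2 scale (SE 0.52, edgeR adjusted p = 0.00489). Neurl3, Pou2f2, Abcd2 and Fabp3 also fell, by 3.08 to 3.40. Rises were ranked among called genes whose libraries did not overlap and whose mean reached 50 CPM on either day. Ccl7 and Folr2, with Day 7 means of 44.6 and 40.3 CPM, were under that limit. Of the 10 largest rises, 8 were in genes higher in other cells than in members in both Day 7 libraries. Among these 8 were the cartilage matrix genes Matn1, Snorc, Acan and Hapln1. The other 2 were Ctsk and Tnip3. Tnip3, an inhibitor of NF-kappaB signalling, was 2.31 and 0 CPM (Day 2), 129.9 and 105 CPM (Day 7), then 185 and 112 CPM (Day 10), with at most 0.112 CPM in other cells. Its Day 2 level rests on 1 UMI, and the Day 7 to Day 2 ratio was 75.7 (exact 95% counting interval 13.5 to 3001).

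Cartilage and limb mesenchyme RNA was measured in the members and moved with these comparisons. The summed level of 12 chondrocyte genes in members was 404 and 526 CPM (Day 2), 6104 and 4618 CPM (Day 7), then 2231 and 2044 CPM (Day 10). In other cells it was 2269 and 2563 CPM (Day 2), 22991 and 21497 CPM (Day 7), then 13602 and 13263 CPM (Day 10). Both were highest at Day 7. Of the 12 genes, 11 were higher at Day 7 than at Day 2 in members and 10 were lower at Day 10 than at Day 7. The test of whether members and other cells differed in these changes called 0 of the 12 in either interval (0.219% of all genes higher and 0.109% lower from Day 7 to Day 10, 4.4% and 8.39% from Day 2 to Day 7). The summed level of 15 mesenchyme genes in members was 1454 and 843 CPM (Day 2), 5204 and 3346 CPM (Day 7), then 3367 and 4552 CPM (Day 10). In other cells it was 6712 and 6303 CPM (Day 2), 10171 and 10224 CPM (Day 7), then 14880.3 and 14048 CPM (Day 10). In members 8 of the 15 were higher at Day 7 than at Day 2 and 1 was lower at Day 10 than at Day 7, and the test against other cells called 0 of them in either interval. Col2a1 had a UMI in every Day 7 member. After 76 members with the most limb mesenchyme RNA were left out (those above the 5th percentile of other cells in their library), 0 of 11 tested were called from Day 7 to Day 10 and 9 of 11 were still higher at Day 7 than at Day 2. From Day 7 to Day 10, 1 of 12 was called without Day 7 replicate A, Day 10 replicate A or Day 10 replicate B. Apoe, Ccl2, Cx3cr1, Mrc1 and Cxcl2 kept their calls between Day 2 and Day 7 without these 76 members. The part of free RNA and doublets in these levels was not tested.

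**Figure D3:**
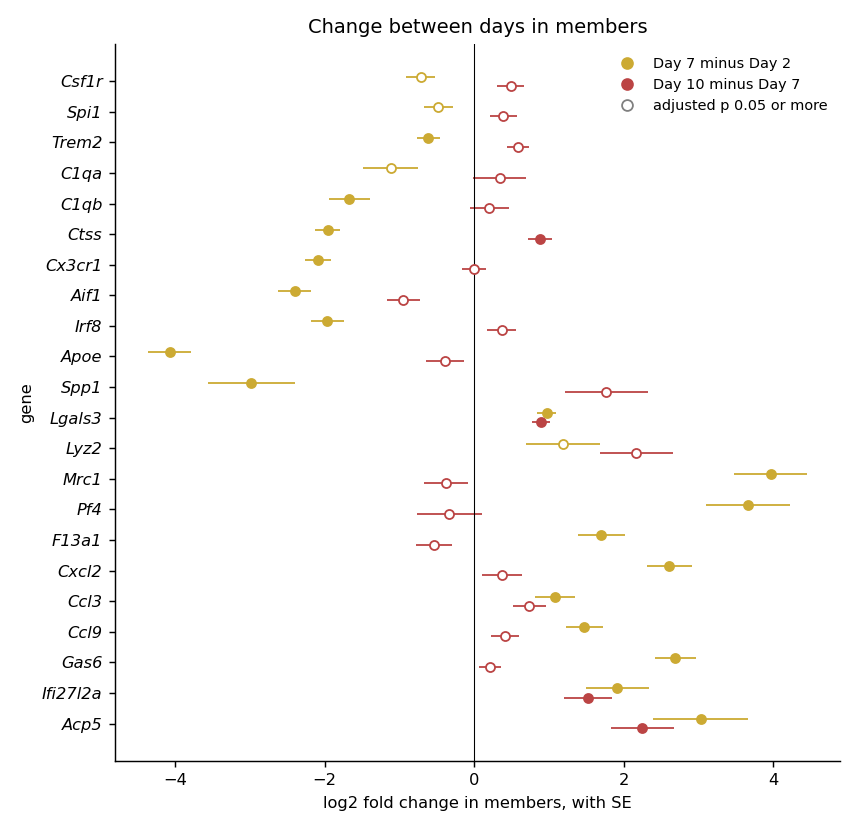
Log2 fold changes of 22 genes in members between Day 2 and Day 7 (yellow) and between Day 7 and Day 10 (red), with the SE of the edgeR fit and n = 2 libraries a day. Filled points passed an adjusted p of 0.05. Most filled points belong to the first interval, and among the genes drawn Apoe lies furthest left and Mrc1 furthest right.

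From Day 7 to Day 10 fewer genes were called in members than from Day 2 to Day 7. Of the 9149 genes, 61 were called higher (0.667%) and 83 lower (0.907%). These calls depended on single libraries. They numbered 7 without Day 7 replicate A, 7 without Day 10 replicate B and 29 without Day 10 replicate A, although at an unadjusted p under 0.05 there were 1671 genes with all libraries. Several genes already higher at Day 7 went on rising. Ccl2 rose by 1.46 on the log2 scale (SE 0.19, edgeR adjusted p = 0.00794) and Ccl7 rose by 1.70 on the log2 scale (SE 0.17, edgeR adjusted p = 0.00636). Folr2 rose by 2.03 on the log2 scale (SE 0.22, edgeR adjusted p = 0.00651). Lgals3, the galectin of phagocytic macrophages, was 1035 and 929.5 CPM (Day 2), 1833 and 1926 CPM (Day 7), then 3778 and 3200.4 CPM (Day 10), with every day apart from the next, and rose by 0.90 on the log2 scale (SE 0.13, edgeR adjusted p = 0.011). The calls of Ccl2 and Lgals3 were lost without Day 10 replicate A, Day 10 replicate B or Day 7 replicate A (edgeR adjusted p = 0.0584 to 0.139).

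Cd207 (langerin), a lectin of Langerhans cells and some macrophages, was 0 and 0 CPM (Day 2), 17.7 and 4.01 CPM (Day 7), then 93.3 and 76.9 CPM (Day 10). It was seen in 4 of 29 and 5 of 46 members at Day 7 and in 36 of 126 and 44 of 174 at Day 10. Cd207 rose by 3.07 on the log2 scale (SE 0.39, edgeR adjusted p = 0.0108), and its call was lost without either Day 10 library. Ifi27l2a, an interferon-inducible gene, was 60.1 and 95.2 CPM (Day 2), 165 and 371 CPM (Day 7), then 716 and 842 CPM (Day 10) and rose by 1.52 on the log2 scale (SE 0.32, edgeR adjusted p = 0.0488). It was the only 1 of 8 tested interferon genes called, and Isg15 stood at 27.012 and 12.031 CPM (Day 7), then 24.1 and 78.8 CPM (Day 10). Klf2, a factor linked to quiescence, rose by 1.46 on the log2 scale (SE 0.21, edgeR adjusted p = 0.0133), and Txnip, an inhibitor of glucose uptake, rose by 1.77 on the log2 scale (SE 0.25, edgeR adjusted p = 0.011). Fcna (ficolin A), Npy and Ecm1 rose by 1.59 to 1.74. Ctss rose by 0.88 on the log2 scale (SE 0.16, edgeR adjusted p = 0.0366), after its fall to Day 7, and its call was lost without any 1 of the Day 7 and Day 10 libraries. Of 19 lysosomal genes 3 were higher (Ctsa, Hexa and Psap) and none lower, with a list median of 0.43, and 0 of the 19 were called without any 1 of the Day 7 and Day 10 libraries. H2-D1, a class I MHC chain, rose by 0.99 on the log2 scale (SE 0.16, edgeR adjusted p = 0.0233). The test of whether the change differed between members and other cells called 0 of 19 lysosomal, 0 of 9 antigen presentation and 0 of 8 interferon genes. Of all genes it called 0.219% higher and 0.109% lower. Lyz2 was 756 and 118 CPM (Day 2), 1045 and 987 CPM (Day 7), then 5066 and 4044 CPM (Day 10). Both Day 10 libraries lay above all 4 others, but it did not pass, with a log2 change of 2.17 (SE 0.48, edgeR adjusted p = 0.0607). Arg1 was 4.62 and 0 CPM (Day 2), 1.04 and 4.01 CPM (Day 7), then 40.3 and 19.2 CPM (Day 10), and a single Day 10 replicate A cell held 65 of its 124 UMIs there. Arg1, arginase 1, rose by 3.40 on the log2 scale (SE 0.65, edgeR adjusted p = 0.0366), and its call was lost without any 1 of the Day 7 and Day 10 libraries.

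Falls in members from Day 7 to Day 10 were ranked among called genes without overlap and with a mean of 50 CPM or more on either day. The 10 genes that fell most were each lower at Day 10 in other cells too, by the day means. Dlk1, a NOTCH-related membrane protein, was 282 and 294 CPM (Day 7), then 47.8 and 42.2 CPM (Day 10) in members, and 852 and 879.6 CPM at Day 7 and 212 and 317 at Day 10 in other cells. The replication-dependent histone genes Hist1h4d, Hist1h2ak, Hist1h2ae and Hist1h1e fell by 2.16 to 3.31 in members. Gm42418, which overlaps ribosomal RNA and collects its reads, was 14688 and 16622 CPM (Day 7), then 2826 and 2507 CPM (Day 10). Gm42418 fell less in members than in other cells, with a difference of 1.09 (SE 0.09, edgeR adjusted p = 0.00145).

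Osteoclast genes were concentrated in few members. The 8 defining genes were Acp5, Ctsk, Mmp9, Atp6v0d2, Ocstamp, Dcstamp, Calcr and Oscar. They encode tartrate-resistant acid phosphatase, cathepsin K, gelatinase B, a proton pump subunit, 2 fusion proteins, the calcitonin receptor and an immunoglobulin-like receptor. Of 409 members, 189 had a UMI of none of them and 150 of 1, while 31 had 4 or more and 4 had all 8. These 31 (7.58% of members) are called osteoclast-gene cells. No other cell within the limits reached 4. Among barcodes with at least 10 adaptor UMIs but over 7500 genes, 1 each in Day 7 replicate B, Day 10 replicate A and Day 10 replicate B did. Neither Day 2 library held any (0 of 34 members), the Day 7 libraries held 1 and 3, and the Day 10 libraries 5 and 22.

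After thinning to 3000 UMIs, the share of members with 4 or more genes was 0% in both Day 2 libraries, 0% and 2.17% at Day 7, and 2.38% and 9.77% at Day 10. Day 10 replicate A lay close to Day 7 replicate B, and Day 10 replicate B stood above all. The means were 0%, 1.09% ± 1.54 and 6.08% ± 5.22 (SD, n = 2), and the exact permutation test gave p = 0.2, where 0.0667 was the smallest possible. A difference between days beyond the spread between cultures was therefore not shown. Without thinning the shares were 0% in both Day 2 libraries, 3.45% and 6.52% at Day 7, and 3.97% and 12.6% at Day 10. Day 10 replicate A then lay below Day 7 replicate B, and the exact permutation test gave p = 0.267. With the 34 Day 2 members of both cultures pooled, 0 cells allow a share of up to 8.82% with 4 genes seen, a limit that covers counting error only and not the spread between cultures.

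Acp5, at chr9:22126727-22135711, was 27.7 and 36.3 CPM (Day 2), 129.9 and 354 CPM (Day 7), then 799.8 and 1529.7 CPM (Day 10). Its levels did not overlap between any 2 days. Acp5 rose by 3.03 on the log2 scale (SE 0.63, edgeR adjusted p = 0.0213) to Day 7 and rose by 2.25 on the log2 scale (SE 0.42, edgeR adjusted p = 0.0366) to Day 10. Without the 31 osteoclast-gene cells the second change was -0.15 and the first 0.05. Acp5 was 1 of the genes that chose these cells, so both values are a description with no test. The call to Day 7 was lost without either Day 2 library or Day 7 replicate B, and that to Day 10 without Day 2 replicate A, Day 7 replicate A or Day 10 replicate B. Ctsk, at chr3:95499256-95509362, was 0 and 4.53 CPM (Day 2), 70.6 and 437 CPM (Day 7), then 477 and 1376 CPM (Day 10). The Day 2 level rests on 1 UMI, and the ratio of Day 7 to Day 2 was 181 (exact 95% counting interval 32.4 to 7171). A single Day 7 replicate B cell held 368 of the 613 Ctsk UMIs of Day 7. The interval takes UMIs as independent and does not cover this spread between cells. For Acp5 the highest single cell held 112 UMIs in Day 7 replicate A and 323 UMIs in Day 7 replicate B. Ctsk was called higher at Day 7 (edgeR adjusted p = 0.0378) and not at Day 10, and the first call was lost without either Day 2 library or without Day 7 replicate B. Mmp9 was 0 and 0 CPM (Day 2), 4.16 and 235 CPM (Day 7), then 64.4 and 488 CPM (Day 10), with replicate B above replicate A at both later days, and was not called. Of the 5 defining genes tested, 2 rose to Day 7 and 1 to Day 10. The list median to Day 7 was 7.37 as fitted and 3.03 with the 3 genes that were at 0 set to their lower bounds. A second list held 19 further osteoclast genes, among them Nfatc1, Tcirg1 and Slc4a2. Of these, 16 were tested and 0 were called in either interval. Of all genes, 3.34% were higher and 3.25% lower to Day 7, and 0.667% and 0.907% to Day 10. The 19 genes summed in members to 645 and 549 CPM (Day 2), 616 and 684 CPM (Day 7), then 699 and 869 CPM (Day 10). In other cells the 8 genes summed to 14.2 and 13.7 CPM (Day 2), 28.1 and 27.6 CPM (Day 7), then 42.4 and 41.3 CPM (Day 10). The test of whether the change differed between members and other cells called 0 of the 5 in either interval.

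**Figure D4:**
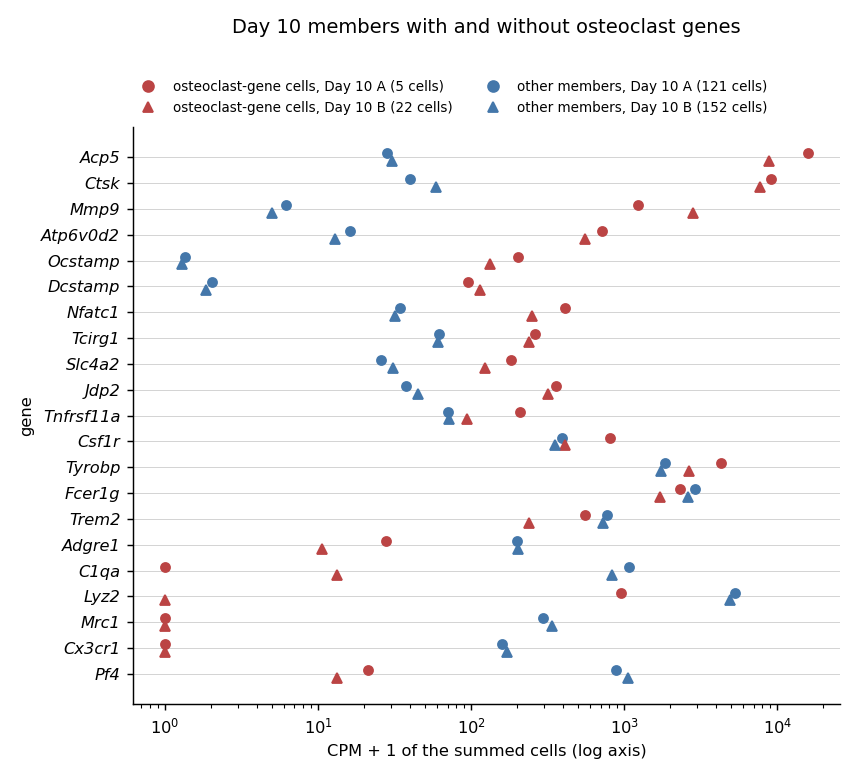
Level of 21 genes in osteoclast-gene cells (red) and in the remaining members (blue) of the Day 10 libraries, as CPM + 1 of the summed cells on a log axis. Acp5, Ctsk and Mmp9 lie far to the right in red, and C1qa, Mrc1, Cx3cr1 and Pf4 far to the right in blue, in both libraries.

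Since the 8 genes chose the osteoclast-gene cells, their levels and all others in them are given as a description. At Day 10, Acp5 was 15937 and 8758 CPM in them against 27.007 and 29.2 in the remaining members. Ctsk was 9073 and 7729 CPM in them against 38.6 and 57.7 in the remaining members, and Mmp9 was 1225 and 2821 CPM in them against 5.13 and 3.96 in the remaining members. Some genes that the choice did not use were higher as well. Nfatc1, the master regulator of osteoclast formation, was 408 and 249.5 CPM in them against 33.5 and 30.9 in the remaining members, with a UMI in 30 of the 31 cells against 149 of 378. Tcirg1, a subunit of the proton pump of the ruffled border, was 261 and 239 CPM in them against 60.9 and 59.7 in the remaining members. Slc4a2, the chloride and bicarbonate exchanger of osteoclasts, was 181 and 121 CPM in them against 24.6 and 29.7 in the remaining members. Rufy4 had a UMI in 17 of 31 and in 1 of 378. Tnfrsf11a (RANK), the receptor of RANKL, was present in 29 of 31 and in 270 of 378, so it was common among all members. Car2 and Clcn7, which make and balance acid, were seen in 21 of 31 each, and Itgb3, the integrin chain of the sealing zone, in 12. For Car2, Clcn7 and Itgb3 no count in the remaining members is given here, so these counts alone show no difference between the cells.

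Several macrophage genes of their neighbours were low in the same 31 cells. A C1q gene had a UMI in 1 of 31 osteoclast-gene cells and in 332 of 378 remaining members. C1qa was 0 and 12.3 CPM in them against 1078 and 832 in the remaining members. Mrc1 was 0 and 0 CPM in them against 295 and 336 in the remaining members, and Cx3cr1 was 0 and 0 CPM in them against 158 and 170.1 in the remaining members. Lyz2 was 944 and 0 CPM in them against 5276 and 4884 in the remaining members, and Pf4 was 20.1 and 12.3 CPM in them against 882 and 1054 in the remaining members. Adgre1 (F4/80) was seen in 7 of 31 and in 335 of 378. Csf1r was in 31 of 31 and stood at 804 and 410.4 CPM in them against 393 and 351 in the remaining members. Trem2 was in 25 of 31, at 556 and 237 CPM in them against 773 and 730.0 in the remaining members, and so was lower in both libraries. Ccl9, a chemokine osteoclasts are known to make, was 368 and 303 CPM in them against 387 and 283 in the remaining members and so was alike in level. Osteoclast-gene cells were deeper, with a median of 29976 UMIs against 21619, and 5 of them held more than 1% of UMIs from limb mesenchyme genes. The part of depth in these differences was not tested.

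The promoters of the 8 genes were searched for TCATGTGA, the M-box word bound by MITF and TFE factors, which act in osteoclasts (TCACATGA on the other strand). Entries existed for Acp5, Ctsk, Calcr and Oscar, with 7 windows. The word was in 1 of 3 Acp5 windows, 91 bases before that start, and in 324 of all 32851 windows (0.986%). The window is shown because Acp5 is the gene of the list that was called in both intervals, with the word in capitals.
Acp5, chr9:22130636-22130735, minus strand: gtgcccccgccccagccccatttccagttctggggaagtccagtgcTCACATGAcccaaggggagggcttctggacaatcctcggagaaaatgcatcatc
Mitf itself was 41.6 and 36.3 CPM (Day 2), 30.1 and 33.7 CPM (Day 7), then 32.5 and 40.3 CPM (Day 10), and was not called.

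Cells with class II antigen presentation genes were rarer still. In 6 members, 2 each in Day 7 replicate B, Day 10 replicate A and Day 10 replicate B, H2-Aa, H2-Ab1 and H2-Eb1 together had 94 to 382 UMIs, while no other member had more than 10. The limit of 50 UMIs was set after these values were seen. The 6 cells held 1218 of the 1244 class II UMIs of all members. Ciita, the class II transactivator, had a UMI in 5 of 6 and in 2 of 403 others, and Epcam in 5 of 6 against 8 of 403. Csf1r was in 6 of 6, C1qa in 5 (307 of 403 others), Zbtb46 in 2 (13 of 403), Adgre1 in 1, and Trem2, Mrc1 and Flt3 in 0. Cd207 had no UMI in any of them. So few cells were given no name. H2-Aa was 0 and 9.07 CPM (Day 2), 0 and 109.9 CPM (Day 7), then 59.8 and 36.3 CPM (Day 10) in the sums, and none of the class II genes was called in either interval.

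Division genes set members apart from other cells over time. The summed level of 20 cell cycle genes in members was 1340.4 and 1904 CPM (Day 2), 2419.6 and 2326 CPM (Day 7), then 2140.5 and 2262 CPM (Day 10). In other cells it was 2926 and 2989 CPM (Day 2), 979.7 and 983 CPM (Day 7), then 896 and 903 CPM (Day 10). Members lay below other cells at Day 2 and above them at Days 7 and 10. Within members, 4 of the 20 genes were higher at Day 7 than at Day 2 (Ccnb2, Ube2c, Cdk1 and Top2a) and none lower, and 1 (Hells) was lower at Day 10 than at Day 7. No cell cycle gene was called to Day 7 without Day 2 replicate A. The change from Day 2 to Day 7 was then compared between members and other cells by an interaction in edgeR, a comparison added after the data were seen. It called 403 genes with a change higher in members (4.4%) and 768 lower (8.39%). Of the 20 cell cycle genes, 19 were higher and none lower, also with library totals, but 10 without Day 2 replicate A. In all, 362 genes were called without that library, 756 without Day 2 replicate B, 738 without Day 10 replicate A and 728 without Day 10 replicate B. Top2a, which untangles DNA before division, was 127 and 195 CPM (Day 2), 313 and 269.5 CPM (Day 7), then 168 and 214 CPM (Day 10) in members and 367 and 428 CPM (Day 2), 134 and 130.3 CPM (Day 7), then 81.2 and 93.2 CPM (Day 10) in other cells. Its change differed by 2.15 (SE 0.18, edgeR adjusted p = 4.74e-05) on the log2 scale. Mki67 (Ki-67) differed by 2.32 (SE 0.31, edgeR adjusted p = 0.000884), and Ube2c by 2.86 (SE 0.27, edgeR adjusted p = 0.000101). In cells thinned to 3000 UMIs, Top2a was seen in 23.0 to 41.4% of members and 10.9 to 15.3% of other cells at Days 7 and 10, against 9.52 and 30.8% of members and 33.8 and 45.3% of other cells at Day 2.

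The direction split of this comparison depended on scaling, with 966 higher and 451 lower when library totals were used alone. Lysosomal genes went the other way from division genes. Their summed level was 9893 and 14292 CPM (Day 2), 7599 and 7896 CPM (Day 7), then 11438 and 10385 CPM (Day 10) in members and 1871 and 1699.5 CPM (Day 2), 2967 and 2922 CPM (Day 7), then 4177 and 4079.7 CPM (Day 10) in other cells. Members were above other cells in every library. The change to Day 7 was lower in members than in other cells for 18 of 19 genes and higher for none, and for 13 without Day 2 replicate A. Ccl2 differed upwards by 6.08 (SE 0.36, edgeR adjusted p = 9.87e-06). Of the genes with the largest upward difference, Plau (urokinase) was 18.5 and 27.2 CPM (Day 2), then 158 and 127 CPM (Day 7) in members, and Ly6a (Sca-1) was 9.24 and 13.6 CPM (Day 2), then 235 and 316 CPM (Day 7). Apoc1 and Trf were among those with the largest downward difference, by -6.18 and -5.14, with other cells at 0.159 to 0.476 CPM of Apoc1 and 0.155 to 0.478 CPM of Trf at these days. Ccl9 differed by -6.03 although it rose in members, with other cells at 0 and 0.006 CPM at Day 2.

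**Figure D5:**
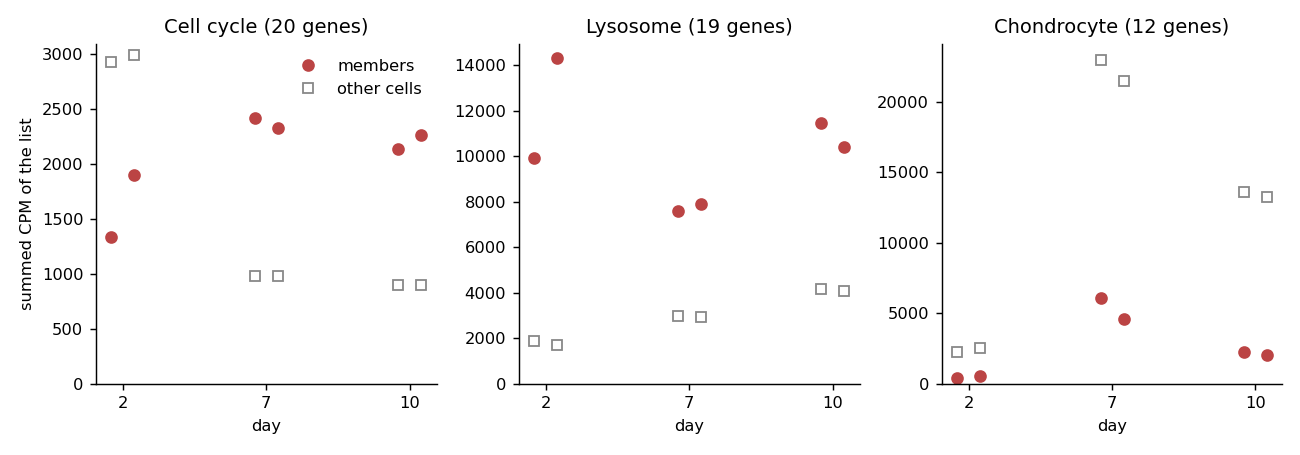
Summed level (CPM) of 3 gene lists in members (red) and other cells (grey) by day, with 1 point per library and axes from 0. Cell cycle genes crossed between Day 2 and Day 7, lysosomal genes stayed higher in members, and chondrocyte genes peaked at Day 7 in both.

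From Day 7 to Day 10 the same interaction called 20 genes with a change higher in members (0.219%) and 10 lower (0.109%). None was called without Day 10 replicate A or without Day 10 replicate B, where 393 and 377 genes had an unadjusted p under 0.05. DESeq2 called 43 with all libraries, and library totals gave 13 higher and 12 lower. Ccl2 differed by 1.28 (SE 0.14, edgeR adjusted p = 0.00364), with members rising and other cells at 16.3 to 23.6 CPM. Lgals3 differed by 1.18 (SE 0.16, edgeR adjusted p = 0.0154), Txnip by 1.48 (SE 0.22, edgeR adjusted p = 0.0303) and Ankrd37, a hypoxia-inducible gene, by 1.45 (SE 0.18, edgeR adjusted p = 0.00669). Igfbp2, which binds insulin-like growth factors, was 89.3 and 99.5 CPM (Day 7), then 40.006 and 22.971 CPM (Day 10) in members and 111 to 122 CPM in other cells, a difference of -1.67 (SE 0.25, edgeR adjusted p = 0.0288). Marcks and Gadd45b differed by -0.91 and -1.13. Srgn and Laptm5 had large differences, but other cells held only 0.439 to 1.75 CPM of them.

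Ligands that supply this lineage were measured in both populations. Csf1 was 6.93 and 13.6 CPM (Day 2), 13.5 and 16.042 CPM (Day 7), then 9.11 and 14.5 CPM (Day 10) in members and 9.3 and 9.52 CPM (Day 2), 28.9 and 28.8 CPM (Day 7), then 41.3 and 38.977 CPM (Day 10) in other cells. Il34, the second CSF1R ligand, was at or under 1.63 CPM in members. Tnfsf11 (RANKL) was 1.17 and 1.07 CPM (Day 2), 2.75 and 2.09 CPM (Day 7), then 3.9955 and 3.98 CPM (Day 10) in other cells, and Tnfrsf11b, its decoy receptor osteoprotegerin, was 7.68 and 7.9 CPM (Day 2), 12.5 and 11.5 CPM (Day 7), then 23.7 and 23.953 CPM (Day 10). Csf1, Tnfsf11 and Tnfrsf11b were highest in other cells at Day 10, when members were most frequent, and no relation was tested over 3 days. Cxcl12 was 41.963 and 43.6 CPM (Day 2), 40.2 and 41.6 CPM (Day 7), then 84.9 and 87.4 CPM (Day 10) in other cells. In members Tnfsf11 was at or under 1.63 CPM, Tnfrsf11b ranged from 2.28 to 6.56 CPM and Cxcl12 from 0 to 22.7 CPM. On the receiving side all 12 receptors were tested in members, with 2 lower at Day 7 (Ifngr1 and Tnfrsf1b) and 0 called at Day 10, where 0.907% of all genes were lower. Tnfrsf11a was 83.2 and 40.8 CPM (Day 2), 84.2 and 94.6 CPM (Day 7), then 76.1 and 74.8 CPM (Day 10), with the Day 10 values inside the range of Day 2. Ccr2, the monocyte receptor for Ccl2, was 55.5 and 27.2 CPM (Day 2), 1.04 and 0.802 CPM (Day 7), then 17.2 and 0 CPM (Day 10), and Day 10 replicate A held nearly all of its later UMIs.

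The 19 genes of adaptor partners and kinases below Tyrobp and Fcer1g summed to 1442 and 1338 CPM (Day 2), 789.6 and 941 CPM (Day 7), then 1148 and 1020.1 CPM (Day 10). Of 16 tested, 4 were lower at Day 7, among them Plcg2, Ptpn6 and Pilra, and 0 were called at Day 10. Their median log2 change to Day 7 was -0.75 against 0.02 over all genes. Syk, the kinase that binds phosphorylated ITAMs, was 46.2 and 31.7 CPM (Day 2), 17.7 and 27.3 CPM (Day 7), then 22.1 and 22.7 CPM (Day 10). Both Day 2 libraries lay above the later ones, and it was not called. Plcg2, which acts below Syk, fell by 1.39 on the log2 scale (SE 0.26, edgeR adjusted p = 0.0121). Clec5a, a receptor paired with DAP12, was 80.9 and 36.3 CPM (Day 2), 74.8 and 64.969 CPM (Day 7), then 109 and 80.4 CPM (Day 10), and Day 2 overlapped both later days. Trem2 stood at Day 10 at 762 and 645 CPM against 462 and 478 at Day 7, a change that did not pass (edgeR adjusted p = 0.085).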

How the data were processed

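Gene counts per barcode (UMIs) were deposited by the authors for 6 libraries, 1 per culture. The submitters' processing notes name Cell Ranger 6.1.2, STAR, Seurat 4.1.0 and the mouse build GRCm38 (mm10). The tables held 32286 feature rows, of which 78 shared a symbol with another row.

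Cells and members were kept by the limits given in the report, and doublets were not removed. Counts were summed over members, and over other cells, per library, and libraries with at least 10 members entered the tests. edgeR 4.0.16 was used (limma 3.58.1, R 4.3.3) with filterByExpr, TMM factors, the quasi-likelihood test and Benjamini-Hochberg adjustment, and a gene was called at an adjusted p under 0.05. All 6 libraries entered 1 fit with day as the term, leaving 3 residual degrees of freedom. Differences between members and other cells in their change between days were tested as an interaction, with both sums of each library in the fit and library as a term. Shares were compared by exact permutation over libraries with SciPy 1.17.1 in Python 3.11.15. For shares of cells with a UMI, each cell was thinned to 3000 UMIs. With 2 cultures a day, p-values rest on the spread between cultures. In edgeR this spread was estimated over all days and moderated across genes. In the fit of members the prior degrees of freedom were 6.92, against 3 residual. Intervals and limits on counts of 0 (3 counts) cover counting error only.

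Members and the 30 gene lists (353 of 354 genes measured) were chosen with earlier results of these data known. The interaction from Day 2 to Day 7, the osteoclast-gene removal and the class II limit were added after the data were seen. Named genes were list genes, the 10 called genes with the largest change each way whose libraries did not overlap and whose mean reached 50 CPM, and the 20 genes furthest above other cells in their lowest library. A few genes that meet these rules are not reported here. Other genes named were chosen after their values were seen. Fits were tested on simulated counts of the real libraries. At a log2 change of 2, 99.0% of changed genes were found from Day 7 to Day 10, 75% from Day 2 to Day 7 and 96.9% in the interaction from Day 7 to Day 10. False calls were 3.98%, 5.52% and 3.59% of calls. The simulations gave every gene the same spread between libraries (coefficient of variation 0.133 in the fits of members). Only genes above a minimum mean count were changed. These rates therefore do not hold for genes that vary more between cultures or have few counts. Alternatives changed the limits, normalization, filter, tool (DESeq2 1.42.0) and libraries.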

Additional observations from a re-analysis of the deposited data

Results flagged for a closer look

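The change from Day 7 to Day 10 differed between members and other cells for 30 genes, by an interaction term in edgeR at an adjusted p under 0.05. Among the named genes, the difference on the log2 scale was higher in members for Srgn (2.29), Lars2 (1.64), Laptm5 (1.63), Txnip (1.48), Ankrd37 (1.45), Ccl2 (1.28), Lgals3 (1.18), AY036118 (1.13), Gm42418 (1.09) and Fam129b (1.08). As given above, Srgn and Laptm5 were near 0 in other cells, and Gm42418 collects ribosomal RNA reads. The difference was lower in members for Marcks (-0.91), Gadd45b (-1.13), Hpgd (-1.30), Ctla2b (-1.66), Igfbp2 (-1.67) and Ifi202b (-1.87). None of these passed without Day 10 replicate A or without Day 10 replicate B.

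The change from Day 2 to Day 7 differed by the same test for 1171 genes, higher in members for 403 (4.4%) and lower for 768 (8.39%). With library totals alone, 966 were higher and 451 lower. Ccl2 (6.08), Ube2c (2.86), Mki67 (2.32) and Top2a (2.15) were among those with a change higher in members.

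Barcodes outside the limits on cells also held at least 10 UMIs of Tyrobp and Fcer1g together. Day 2 replicate A held 2 of them and Day 2 replicate B 0. The Day 7 libraries held 9 and 10, and the Day 10 libraries 24 and 22. All but 2 in each Day 10 library had more than 7500 genes, and the median of those was 88021 to 157447 UMIs in the 5 libraries that held any.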

How the results depend on the processing

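Genes called from Day 7 to Day 10 (144) became 43 with a minimum of 20 UMIs, 27 with a minimum of 1000 UMIs of the rule genes scaled to the cell's total, 265 with no upper limit on genes, 44 without members rich in limb mesenchyme genes, 39 with each cell thinned to 3000 UMIs and 706 with no filter on low counts, and ranged from 7 to 181 when 1 library was left out. From Day 2 to Day 7 (603) they were 89 thinned and 1142 unfiltered, and 186 to 431 with 1 library left out. The interaction from Day 7 to Day 10 (30) gave 18 with a minimum of 5 UMIs, 2 with 20, 10 scaled to the cell's total, 13 with no upper limit, 17 without limb-rich members, 5 thinned, 245 unfiltered, 10 without the Day 2 libraries, and 0 to 47 with 1 library left out. That from Day 2 to Day 7 (1171) gave 646 with no upper limit, 244 thinned and 362 to 797 with 1 library left out. The cause was not tested. Asah1 from Day 2 to Day 7 turned to 0.41 after thinning (edgeR adjusted p = 0.728). Acp5 from Day 7 to Day 10 was -0.15 without osteoclast-gene cells, which were chosen partly on Acp5, so this is no test. The exact permutation p of the member share was 0.133 with a minimum of 1000 UMIs per cell or without Day 2 replicate A, Day 2 replicate B or Day 7 replicate B. The median of all genes in the interaction from Day 2 to Day 7 was -0.07, and 0.27 with library totals. Correlations of deviations between samples of the same letter were 0.0397, 0.00601 and -0.00198, so the letters were not used as pairs. With the replicate block the 4 counts were 159, 562, 67 and 1206. Apoe, Ccl2, Cx3cr1, Mrc1 and Cxcl2 kept their direction and call from Day 2 to Day 7 under every alternative run. Depth limits Day 2 most, with 34 members.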
